A study of Mus musculus with 6 samples.

Results

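The histone genes were examined in the bone marrow (BM) of mice with leukemia driven by JAK3 M511I, with and without Phf6. A gene was a member if the deposited table gave it as protein-coding and its name began with Hist1h, Hist2h, Hist3h, Hist4h, H2af, H3f or H1f. This rule found 82 of 54532 genes, of which 22046 were protein-coding. The members fell into 67 genes named for a histone cluster, called clustered here, and 15 genes named H2af, H3f or H1f, called variant here. The clustered genes comprised 6 of type H1, 18 of H2A, 18 of H2B, 12 of H3 and 13 of H4, and the variant genes 4 of H1, 9 of H2A and 2 of H3. Of the clustered genes, 54 lay on chromosome 13 (GRCm38, between 21715763 and 23934851), 10 on chromosome 3, 2 on chromosome 11 and 1 on chromosome 6, and 63 had 1 exon in the annotation.

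PHF6 is a chromatin protein that is lost in many T-cell acute lymphoblastic leukemias (T-ALL), and JAK3 M511I is an activated form of a kinase that signals for cytokine receptors. Lin- BM cells from male C57BL/6 donors, either Vav1-Cre;Phf6 fl/y (KO) or Phf6 fl/y without Cre (WT), received JAK3 M511I on an MSCV retrovirus that also carries GFP and were transplanted into male recipients. All 6 libraries therefore share JAK3 M511I, and 3 WT (WT 1 to WT 3) and 3 KO (KO 1 to KO 3) libraries were made from BM taken on day 100 after transplantation. Vav1-Cre acts in all blood cells, the recipient can keep blood cells of its own, and the labels do not say whether GFP+ cells were sorted before RNA was extracted. The genotype labels name Phf6 for WT 1 and KO 1 but Phf7 for WT 2 and KO 2 and Phf8 for WT 3 and KO 3. The series design speaks of Phf6 alone, so all 6 were read as Phf6 WT or KO, a reading that the labels themselves leave uncertain. The targeted gene did not separate the groups. In FPKM (fragments normalized to gene length and library size) Phf6 stood at 7.47, 3.67 and 8.02 in WT 1 to WT 3 and at 6.73, 5.50 and 5.11 in KO 1 to KO 3, and its log2 fold change was -0.07 ± 0.33 (SE, limma, adjusted p = 0.893). The deletion was therefore not visible at the level of the whole gene, and KO and WT below name libraries by the WT or KO of their labels.

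Histones are the proteins that DNA is wound around: H2A, H2B, H3 and H4 form the core of the nucleosome, and H1 binds the DNA that links nucleosomes. The clustered genes are transcribed during S phase, when new DNA has to be packed, and their mRNA normally ends in a short 3′ stem-loop, bound by SLBP, instead of a poly(A) tail. Variant genes such as H3f3a, H3f3b, H2afz and H2afx are transcribed outside S phase as well and most give polyadenylated mRNA, H2afx being known for both forms of mRNA end, and their proteins replace clustered histones at particular places in chromatin. Some clustered genes can also give polyadenylated mRNA, mostly in cells that have left the cycle. Whether poly(A) RNA was selected for these libraries was not given in the sources used here.

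The stem-loop is the sequence that sets the clustered genes apart, so it was read from the GENCODE M21 transcripts (GRCm38), whose gene coordinates were the same as those of the deposited table for 82 of 82 members. The search looked in the sense strand of protein-coding transcripts for GGNNNTTTNNANNNCC with 6 paired bases around a loop of 4. It was found in 44 of 67 clustered genes (65.7%), in 1 of 15 variant genes and in 0.315% of 21901 protein-coding genes. The following examples are shown because they cover 5 of the 7 forms found and include genes with results described below. The stem-loop is in capitals with 5 bases on either side.
Hist1h2ag, H2A, chr13:22042483-22042498, minus strand: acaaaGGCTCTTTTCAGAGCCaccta
Hist1h2bj, H2B, chr13:22043638-22043653, plus strand: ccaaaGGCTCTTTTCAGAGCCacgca
Hist1h1c, H1, chr13:23739512-23739527, plus strand: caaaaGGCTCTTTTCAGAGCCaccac
Hist1h3c, H3, chr13:23745047-23745062, minus strand: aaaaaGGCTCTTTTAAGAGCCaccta
Hist1h4f, H4, chr13:23551291-23551306, minus strand: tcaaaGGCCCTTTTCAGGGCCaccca
Hist1h4i, H4, chr13:22040966-22040981, minus strand: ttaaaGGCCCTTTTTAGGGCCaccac
H2afx, H2A, chr9:44335240-44335255, plus strand: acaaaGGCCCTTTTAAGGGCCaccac
One form, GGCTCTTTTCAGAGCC, was shared by 26 genes of types H1, H2A, H2B and H3. All 11 H4 genes with a match had other stems: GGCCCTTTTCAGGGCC in 7, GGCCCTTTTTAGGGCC in 2 and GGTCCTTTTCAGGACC in 2. The variant gene with a match was H2afx, which, like 7 other variant genes of the 15, has 1 exon in the annotation. Among clustered genes without a match, many gene models end at or near the stop codon, so the absence concerns these models only.

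Sequencing depth, recovered from the table as whole reads, lay between 13015823 and 18235095 reads per library. WT 2 stood apart from the other libraries: genes shorter than 1000 bases took 17.1% of its reads and between 3.11% and 5.01% in the others, its FPKM summed to 897352 against 244936 to 329893, and its correlation with WT 1 and WT 3 was 0.779 and 0.746 where WT 1 and WT 3 correlated at 0.948 (Pearson, across the genes tested on the log2(FPKM + 1) scale, which are not independent). Marker genes of other blood cells also differed. Summed FPKM of 8 neutrophil markers lay between 6711 and 93263 in WT and between 87.7 and 283 in KO. All 8 of 8 passed as lower in KO (limma, adjusted p under 0.05), beside 13.3% of all genes. The 8 erythroid markers summed to 68101 in WT 2, to 138 in WT 1 and 530 in WT 3, and to between 10.8 and 121 in KO. The 8 B cell and the 8 monocyte and macrophage markers summed to 707 to 2649 and 326 to 4692 in WT and to 17.3 to 70.1 and 10.04 to 19.6 in KO. The 8 T cell markers summed to 722 to 1471 in WT and 871 to 1139 in KO. Of the markers tested, 0 of 7 erythroid, 1 of 5 B cell and 5 of 6 monocyte and macrophage genes passed as lower, and 0 as higher. Of the 8 T cell markers, 1 passed as higher and 1 as lower. No marker was at 0 in every library. The part of these cells in the histone values below was not tested, and in bulk RNA fewer cells of a type and less RNA per cell cannot be told apart. The labels do not say which libraries came from separate animals, so p-values measure the spread between these libraries.

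The clustered histone genes as a class were higher in KO than in WT 1 and WT 3, and highest in WT 2. Their summed FPKM was 87.4 in WT 1, 501 in WT 2 and 47.8 in WT 3, and 162, 233 and 214 in KO 1 to KO 3. On average the 3 KO libraries stood at 3.0 times the mean of WT 1 and WT 3 and at 0.957 times the mean of all 3 WT libraries. The groups therefore overlapped only through WT 2, which exceeded every KO library. The class rested on few reads: 1742, 5521 and 886 in WT 1 to WT 3 and 2382, 2693 and 2481 in KO 1 to KO 3. As a share of all reads this was 114 (95% Wilson interval 108 to 119), 303 (295 to 311) and 60.5 (56.7 to 64.6) RPM (scaled to the recovered reads) in WT and 149 (143 to 155), 207 (199 to 215) and 178 (171 to 185) in KO, intervals that cover counting error only.

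The variant histone genes were more abundant and differed less. Their summed FPKM was 563, 1522 and 480 in WT 1 to WT 3 and 661, 750 and 835 in KO 1 to KO 3. KO exceeded WT 1 and WT 3 by a factor of 1.44 in the mean, and WT 2 was again above all KO libraries in FPKM. In RPM, however, WT 2 (2210) lay above KO 1 (2089) and below KO 2 (2374) and KO 3 (2557). Clustered genes amounted to 15.5%, 32.9% and 9.98% of the variant sum in WT 1 to WT 3 and to 24.6%, 31.0% and 25.6% in KO 1 to KO 3.

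The place of WT 2 depended on the scale. When each library was rescaled to TPM (each library divided by its own FPKM sum, so that all libraries have the same total), the clustered genes summed to 265, 558 and 156 TPM in WT and to 663, 927 and 832 TPM in KO, and the variant genes to 1706, 1696 and 1568 TPM in WT and to 2697, 2988 and 3254 TPM in KO. On this scale no WT library reached a KO library in either class. Rescaling to TPM also moved the median difference over all tested genes (log2) from 0.09 to 0.86, and the balance of calls from 1754 higher and 1785 lower (49.6% higher) to 2279 higher and 1081 lower (67.8% higher), so a rise on the TPM scale has to be read against that shift.

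A comparison within each library does not depend on its scaling. Against a list of 24 S phase genes, such as the replicative helicase subunits Mcm2 to Mcm7, the clustered genes stood at 24.9%, 94.0% and 18.4% of the summed FPKM of the list in WT 1 to WT 3 and at 25.9%, 29.1% and 20.9% in KO 1 to KO 3. The S phase sum itself was 350, 533 and 261 in WT and 627, 800 and 1022 in KO. In this ratio WT 1 lay within the KO range, WT 3 below it and WT 2 far above it. For the core types alone, leaving out H1, the percentages were 10.8%, 69.6% and 9.89% in WT and 22.7%, 26.0% and 19.0% in KO, so WT 1 and WT 3 then lay below KO. The plot of class levels shows these sums.

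**Figure D1:**
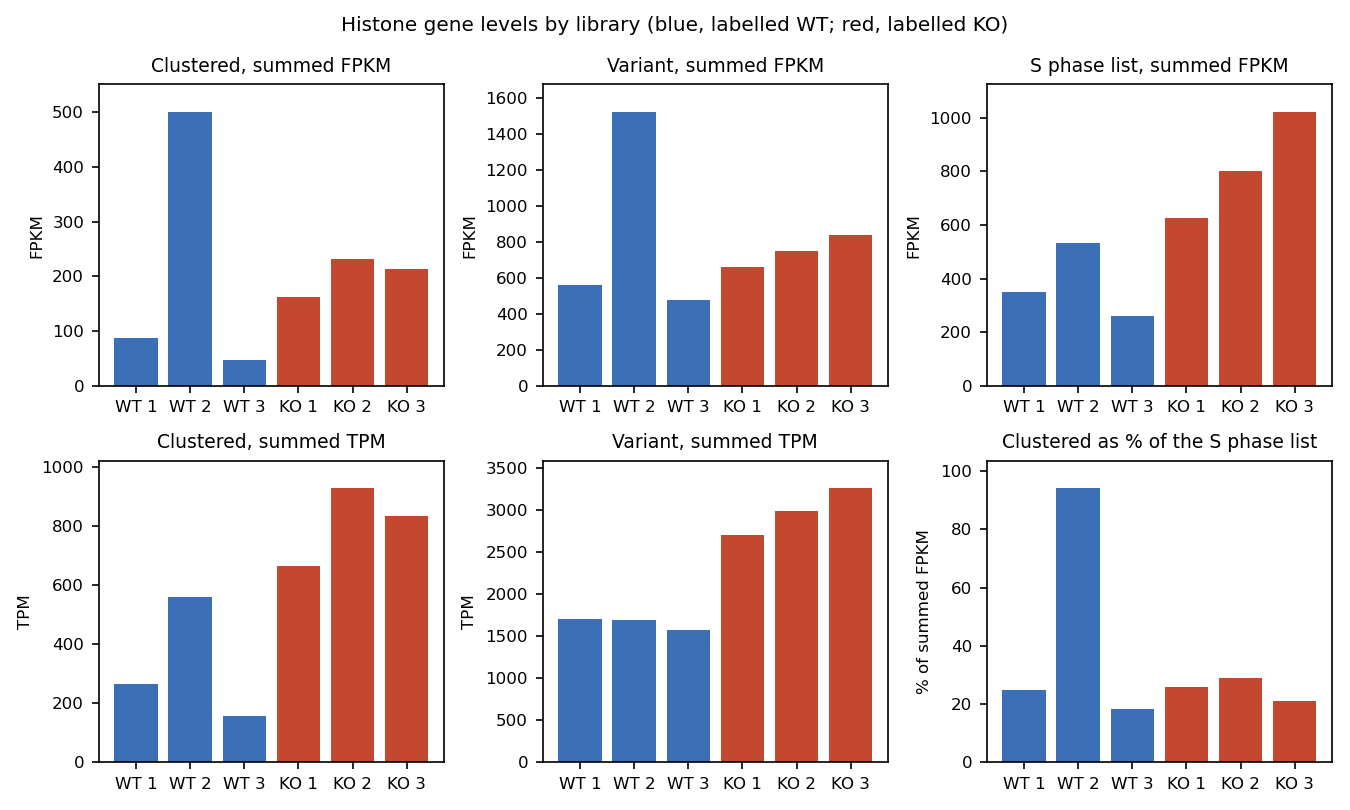
Bars give the summed FPKM (top) and TPM (bottom left and middle) of the 67 clustered and 15 variant histone genes and of the 24 S phase genes in each library, and the clustered sum as a percentage of the S phase sum (bottom right); blue is WT and red is KO, 1 bar per library with no error bar. WT 2 has the highest FPKM bar in both histone classes (501 and 1522), and no WT bar reaches a KO bar on the TPM scale.

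As shares of the clustered FPKM, H1, H2A, H3 and H4 separated KO from all 3 WT libraries, WT 2 included. H1 genes took 56.9%, 26.0% and 46.1% of the clustered FPKM in WT 1 to WT 3 but 12.2%, 10.6% and 9.08% in KO 1 to KO 3. Nearly all of this was Hist1h1c, which alone took 55.5%, 20.2% and 43.7% in WT and 10.3%, 8.25% and 6.86% in KO. H2A took 7.55%, 13.4% and 9.34% in WT and 19.5%, 24.2% and 23.1% in KO, with no overlap. H3 took 4.04%, 11.3% and 4.82% in WT and 15.8%, 16.9% and 22.3% in KO, and H4 took 15.9%, 21.2% and 20.2% in WT and 32.5%, 28.6% and 23.3% in KO, both again without overlap. H2B, at 15.6%, 28.1% and 19.6% in WT and 19.97%, 19.7% and 22.2% in KO, overlapped.

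**Figure D2:**
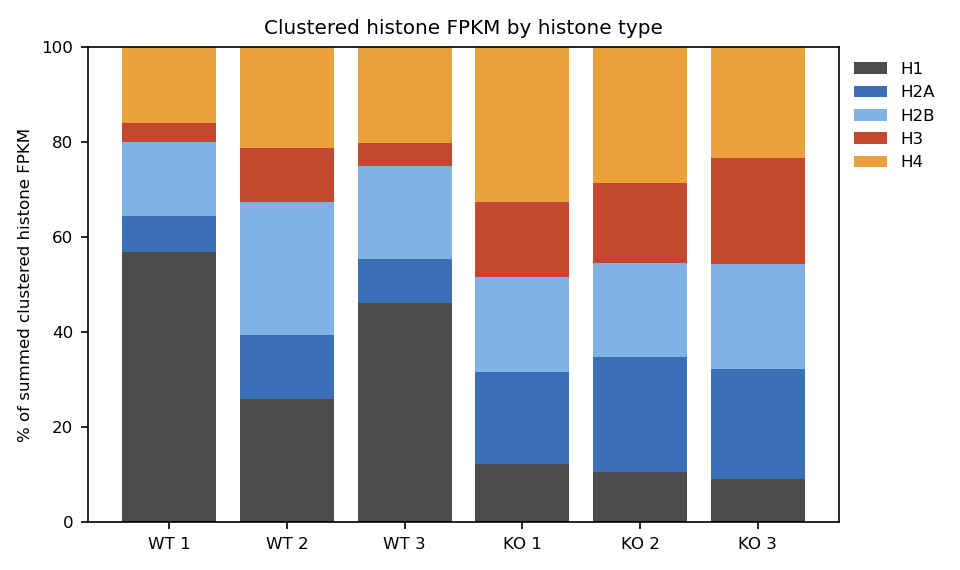
Stacked bars give the percentage of the summed FPKM of the 67 clustered histone genes that each histone type took in each library. The H1 part is 26.0% or more in the WT libraries and 12.2% or less in the KO libraries.

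Since Hist1h1c weighs on every share, the 4 core types were also compared among themselves. H2A then took 17.5%, 18.1% and 17.3% of the core FPKM in WT and 22.2%, 27.1% and 25.4% in KO. H3 took 9.36%, 15.2% and 8.95% in WT and 17.9%, 18.9% and 24.5% in KO. H2B went the other way, at 36.2%, 38.0% and 36.3% in WT and 22.7%, 22.0% and 24.4% in KO, and H4 overlapped at 36.9%, 28.7% and 37.4% in WT and 37.1%, 32.0% and 25.7% in KO. The lower H2B share in KO lay with Hist1h2bc and Hist3h2ba, a pair singled out after their values were seen: together they took 16.9%, 23.4% and 17.4% of the core FPKM in WT and 4.10%, 3.15% and 3.99% in KO, while all other H2B genes took 19.4%, 14.6% and 19.0% in WT and 18.6%, 18.9% and 20.4% in KO. The pair is part of the core FPKM, so its larger share in WT also lowers the H2A and H3 shares there. With the pair left out of the sum, WT 2 comes above KO 1 in both the H2A and the H3 share. Neither type then separates KO from all 3 WT libraries, while WT 1 and WT 3 stay below every KO library. All shares given here describe 3 libraries against 3, for which the smallest two-sided exact permutation p is 0.1, and they were not tested.

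Single genes were tested by limma on log2(FPKM + 1), where changes at low levels come out too small, if 3 or more of the 6 libraries reached an FPKM of 1. Of the clustered genes 36 passed this filter and 31 did not. Among the 36, only 11 had an FPKM of 1 or more in WT 1 or WT 3, so the other 25 passed through KO and WT 2, among them all 4 genes called with all libraries. For that reason the counts over these genes describe those that passed and are no support for a direction. Between all 3 KO and all 3 WT libraries 4 clustered genes were higher (Hist1h2ag, Hist1h4f, Hist1h2bl and Hist1h2ai), which is 11.1% of those tested, and 0 were lower, where 13.1% of all 13393 genes tested were higher and 13.3% lower. A share near that of all genes is not a result about histones. The count of clustered genes with an unadjusted p under 0.05 was 8, and the median log2 fold change was 0.72 for the clustered genes and 0.09 for all genes. No variant gene of 8 tested passed in either direction (0 with an unadjusted p under 0.05), and their median was 0.16. With array weights, which count WT 2 at a weight of 0.0509, 30 clustered genes were higher and 1 lower, and 4 variant genes were higher. Of all genes 32.8% were higher in that setting, and the limit of the filter applies to its clustered count too.

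WT 2 decided these counts. Without WT 1, WT 3, KO 2 or KO 3 in turn 2 clustered genes of the 36 were higher, and without KO 1 there were 3. Of all genes 9.24%, 11.1%, 7.004% and 7.18% were higher in the first 4 settings and 7.38% without KO 1. The share of all genes thus fell as well, from 13.1% with all libraries. Without WT 2, 28 of the 36 clustered genes tested were higher and 0 lower (77.8%, against 26.8% higher and 25.3% lower of all genes), with a median log2 fold change of 1.30, and 4 of 8 variant genes were higher, with a median of 0.39. Of the 11 clustered genes that reached an FPKM of 1 in WT 1 or WT 3, 3 were among the 28, a share near the 26.8% of all genes. These 11 were picked by their level in the WT libraries of this comparison, so their share is no support either way. The rest of the 28 were genes that had passed the filter through KO and WT 2. With no filter at all, 25 of the 60 clustered genes with any read were higher without WT 2, against 12.5% of 28116 genes. On the TPM scale 17 of 36 clustered genes were higher with all libraries, against 17.0% of all genes, and 30 without WT 2, against 39.4%. Most clustered genes are short, with a median length of 539 bases against 1633 for variants, and 49 of 67 were shorter than 1000 bases. Among the 2368 genes tested that were shorter than 1000 bases, 12.2% were higher with all libraries and 23.4% without WT 2. In the median, WT 2 exceeded the mean of WT 1 and WT 3 by 2.33 on the log2 scale for clustered genes and by 1.38 for variant genes, and lay 0.12 below it for all genes and 0.29 below it for the short genes. The clustered median is partly set by the filter, since 25 of the 36 genes passed it through KO and WT 2, and the part of gene length in these values was not tested. WT 2 was the highest library for 21 of the 36 clustered and for 5 of the 8 variant genes.

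**Figure D3:**
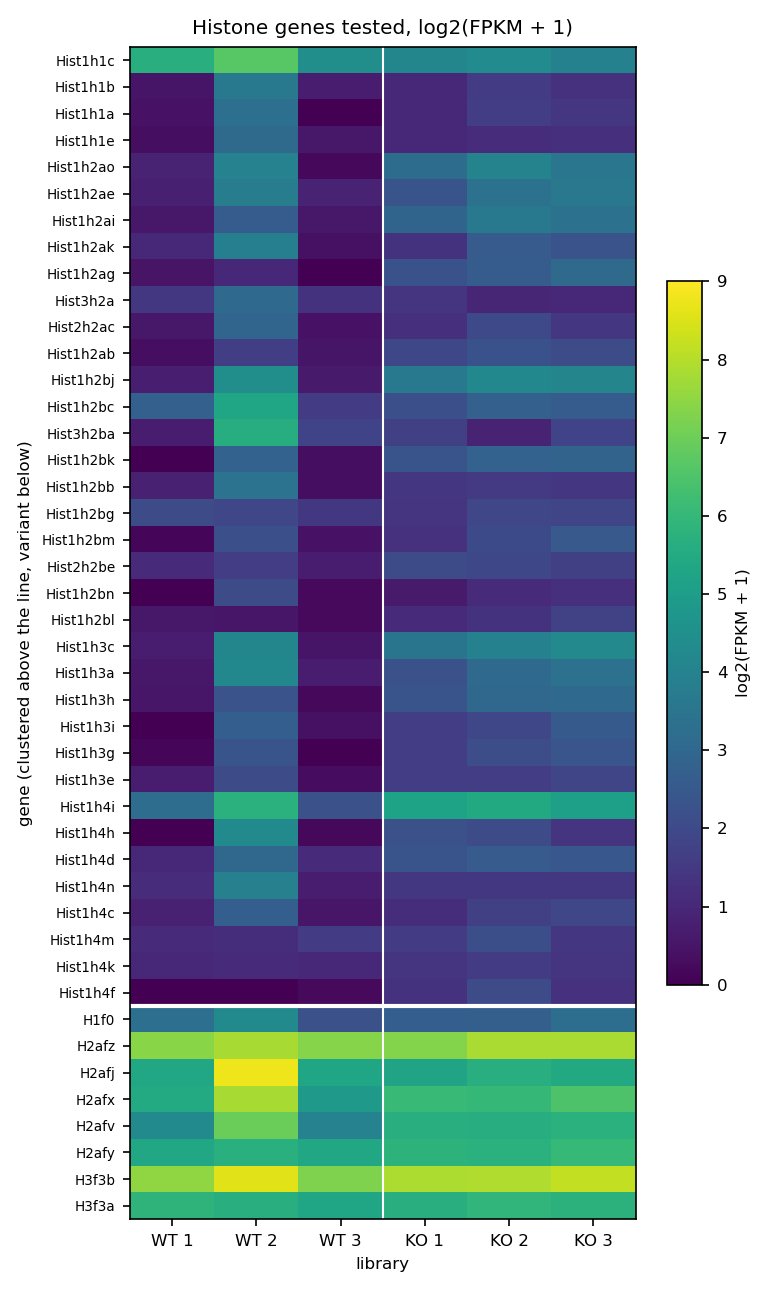
Each cell gives log2(FPKM + 1) of 1 histone gene (rows, 36 clustered above the white line and 8 variant below) in 1 library (columns). WT 2 is the brightest column for 21 clustered and 5 variant genes, and WT 1 and WT 3 are darker than the 3 KO columns in most clustered rows.

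Among H1 genes, Hist1h1c stood apart from the rest of the class. Hist1h1c (ENSMUSG00000036181, chromosome 13, 23738808 to 23740367, plus strand), which encodes a linker histone of somatic cells, had an FPKM of 48.5, 101.04 and 20.9 in WT 1 to WT 3 and of 16.7, 19.2 and 14.7 in KO 1 to KO 3. All KO libraries lay below all WT libraries, and it was the only clustered gene of the 36 tested with that order, where 22.9% of all genes had it. The log2 fold change was -1.44 ± 0.55 (SE, limma, adjusted p = 0.107), and -0.89 without WT 2, so it did not pass. The adjusted p ranged from 0.00246 to 0.271 over 18 alternatives, 2 of which passed. In contrast, Hist1h1b, another somatic H1, had an FPKM of 0.436, 11.3 and 0.608 in WT and of 1.01, 1.97 and 1.42 in KO. Hist1h1a had 0.350, 8.72 and 0 in WT and 1.01, 2.14 and 1.68 in KO. Both were above WT 1 and WT 3 and below WT 2 in each KO library. Their log2 fold changes were -0.33 ± 0.82 and 0.12 ± 0.84 (SE) with all libraries and 0.68 ± 0.21 and 1.14 ± 0.25 without WT 2, where both passed.

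H2A genes included the clustered gene with the smallest adjusted p, Hist1h2ag. Hist1h2ag (ENSMUSG00000069301, chromosome 13, 22042460 to 22042944, minus strand) stood at 0.401, 1.05 and 0 in WT 1 to WT 3 and at 3.87, 5.11 and 7.68 in KO 1 to KO 3, from 3, 6 and 0 reads in WT and 35, 39 and 60 in KO. No WT library, WT 2 included, reached a KO library. The log2 fold change was 2.16 ± 0.35 (SE, limma, adjusted p = 0.00613), and Hist1h2ag passed in 17 of the 17 alternatives that tested it, with an adjusted p between 6.59e-05 and 0.0300. Hist1h2ai (chromosome 13, 21716422 to 21716814, plus strand) had 0.495, 5.19 and 0.493 in WT and 6.42, 11.3 and 9.33 in KO. All KO libraries were above WT 2, and the log2 fold change was 2.03 ± 0.60 (SE, limma, adjusted p = 0.0491), but it passed in only 6 of 18 alternatives. Hist1h2ab had 0.274, 2.16 and 0.409 in WT and 2.84, 3.76 and 3.15 in KO, again without overlap, and missed the threshold with a log2 fold change of 1.25 ± 0.38 (SE, limma, adjusted p = 0.0539).

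The more abundant H2A genes were as high in WT 2 as in KO. Hist1h2ao had an FPKM of 0.810, 15.1 and 0.134 in WT and of 8.16, 15.3 and 10.5 in KO. Hist1h2ae had 0.736, 12.6 and 0.825 in WT and 4.04, 9.47 and 11.2 in KO. WT 2 lay within or above the KO range for both, while WT 1 and WT 3 were below every KO library. Their log2 fold changes were 1.90 ± 0.97 and 1.30 ± 0.85 (SE, limma, adjusted p = 0.205 and 0.317), and 3.06 ± 0.32 and 2.28 ± 0.39 without WT 2, where both passed. Of 18 clustered H2A genes 8 were tested. With all libraries 2 were higher and without WT 2 there were 7, beside 13.1% and 26.8% of all genes. In WT 1 and WT 3 only 1 clustered H2A gene each reached an FPKM of 1. Most of the 8 thus passed the filter through KO and WT 2, and these counts are no support for a direction.

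Among H2B genes, Hist1h2bl (chromosome 13, 21715763 to 21716143, minus strand) was higher in KO but low everywhere, with an FPKM of 0.510, 0.447 and 0.169 in WT and of 1.13, 1.5 and 2.45 in KO, from 3, 2 and 1 reads in WT and 8, 9 and 15 in KO. The groups did not overlap, and the log2 fold change was 0.95 ± 0.24 (SE, limma, adjusted p = 0.0297). It passed in 9 of 17 alternatives. Like Hist1h4f it entered the test through KO libraries only, and with no filter it did not pass (limma, adjusted p = 0.0771). Hist1h2bj, the neighbour of Hist1h2ag, had 0.700, 20.8 and 0.557 in WT and 11.6, 17.3 and 15.96 in KO. WT 1 and WT 3 were far below KO and WT 2 was above it, and the log2 fold change was 2.03 ± 1.01 (SE, limma, adjusted p = 0.196) with all libraries and 3.28 ± 0.20 without WT 2, where it passed.

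The pair of H2B genes with the lower share in KO had other patterns. Hist1h2bc had 5.72, 38.4 and 1.95 in WT and 3.58, 5.71 and 5.21 in KO. Hist3h2ba, on chromosome 11, had 0.633, 48.2 and 2.52 in WT and 2.27, 0.828 and 2.53 in KO. For both, WT 1 and WT 3 overlapped KO and WT 2 was far above all other libraries. The log2 fold changes were -0.68 ± 0.90 and -1.25 ± 1.21 (SE, limma, adjusted p = 0.627 and 0.502) and turned to 0.37 ± 0.38 and 0.20 ± 0.43 without WT 2, so no change was detectable. Of 18 clustered H2B genes 10 were tested. With all libraries 1 was higher, a share near the 13.1% of all genes, and without WT 2 there were 7, beside 26.8%. In WT 1 and WT 3 only 3 clustered H2B genes each reached an FPKM of 1, so the same limit of the filter applies.

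H3 genes were led by Hist1h3c. Hist1h3c (ENSMUSG00000069310, chromosome 13, 23744973 to 23745602, minus strand) stood at 0.617, 16.6 and 0.410 in WT and at 10.2, 14.6 and 17.6 in KO. Hist1h3a had 0.485, 17.4 and 0.604 in WT and 3.72, 7.37 and 9.31 in KO, and Hist1h3h had 0.473, 3.93 and 0.157 in WT and 4.05, 7.26 and 7.41 in KO. WT 1 and WT 3 were below every KO library for all 3 genes, and WT 2 lay within the KO range, above it and just below it in turn. The log2 fold change of Hist1h3h was 1.79 ± 0.58 (SE, limma, adjusted p = 0.0644). Hist1h3c and Hist1h3a stood at 2.12 ± 0.96 and 1.07 ± 0.99 (SE, limma, adjusted p = 0.164 and 0.480). Without WT 2 these became 2.43, 3.30 and 2.26 for Hist1h3h, Hist1h3c and Hist1h3a. All 6 clustered H3 genes tested were then higher, beside 26.8% of all genes, where 0 of the 6 had passed with all libraries (limma). No clustered H3 gene reached an FPKM of 1 in WT 1 or WT 3, so all 6 had passed the filter through KO and WT 2. Their count without WT 2 is therefore no support for a direction. The median log2 fold change by type was 2.12 for H3, 1.97 for H2A, 1.15 for H4, 0.93 for H2B and 0.68 for H1 without WT 2, and 1.15, 1.27, 0.43, 0.48 and -0.27 with all libraries, where H2A came before H3. These medians, and so their order, are partly set by the filter.

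Hist1h4i (ENSMUSG00000060639, chromosome 13, 22040636 to 22041362, minus strand) was the most abundant clustered gene in KO. Its FPKM was 8.29, 52.9 and 3.73 in WT and 36.1, 43.4 and 33.1 in KO, from 93, 452 and 42 reads in WT and 489, 497 and 387 in KO. WT 2 was again above KO. The log2 fold change was 1.52 ± 0.85 (SE, limma, adjusted p = 0.245), and 2.53 ± 0.30 without WT 2, where it passed. Hist1h4f (ENSMUSG00000069274, chromosome 13, 23551258 to 23551648, minus strand) had no read in WT 2. It had 0, 0 and 0.165 in WT, which is 1 read in all, and 1.51, 3.25 and 1.43 in KO, from 11, 20 and 9 reads. The groups did not overlap, the log2 fold change was 1.49 ± 0.26 (SE, limma, adjusted p = 0.00776), and Hist1h4f passed in 17 of the 17 alternatives that tested it. It reached an FPKM of 1 in KO libraries only and so entered the test through the group where it is high. With no filter its adjusted p was 0.0237, and over the 17 alternatives it was at most 0.0338.

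Of the other abundant H4 genes, Hist1h4d had an FPKM of 1.02, 7.10 and 1.13 in WT and of 4.06, 4.97 and 4.42 in KO. Hist1h4h had 0, 18.1 and 0.137 in WT and 3.66, 3.24 and 1.59 in KO. WT 2 was the highest library and WT 1 and WT 3 the lowest for both. The log2 fold changes were 0.74 ± 0.55 and 0.41 ± 1.12 (SE, limma, adjusted p = 0.381 and 0.824), and 1.40 and 1.80 without WT 2. H4 proteins from different genes are the same or nearly so, and many clustered genes of a type share most of their coding sequence. How reads that match several copies were counted was not given in the sources used here, so values of single clustered genes are less certain than the sums over a type.

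**Figure D4:**
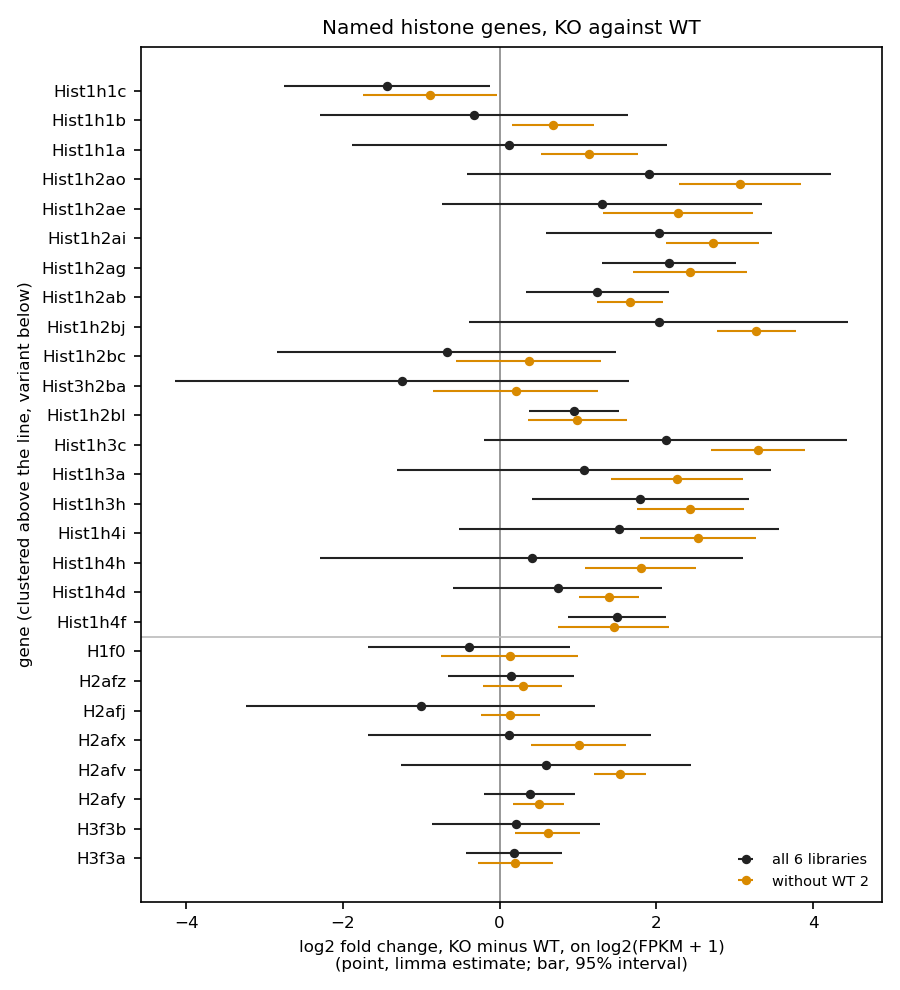
Points give the log2 fold change (KO minus WT, on log2(FPKM + 1)) of the named histone genes with a 95% interval from limma, in black with all 6 libraries and in orange without WT 2. The intervals shrink without WT 2 for most clustered genes, and Hist1h1c is the clustered gene whose orange point lies below 0, at -0.89.

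Among the variant genes, H2afv and H2afx differed most once WT 2 was set aside. H2afv (ENSMUSG00000041126, chromosome 11, 6427229 to 6444443, minus strand), which encodes a close relative of H2A.Z, stood at 18.4, 124 and 15.1 in WT and at 49.6, 48.0 and 52.9 in KO. H2afx (ENSMUSG00000049932, chromosome 9, 44334694 to 44336077, plus strand), whose protein is phosphorylated around DNA breaks, had 44.6, 226 and 28.0 in WT and 67.0, 63.3 and 88.2 in KO. For both genes KO lay above WT 1 and WT 3 and below WT 2. The log2 fold changes were 0.59 ± 0.77 and 0.13 ± 0.75 (SE, limma, adjusted p = 0.620 and 0.923), and 1.53 ± 0.14 and 1.01 ± 0.25 without WT 2, where both passed. The log2 fold change of H2afx was -0.15 without WT 1 and -0.48 without WT 3.

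H2afy and the H3.3 genes differed little. H2afy, which encodes macroH2A, had 40.0, 51.3 and 41.1 in WT and 55.9, 53.0 and 64.5 in KO, and was the only variant gene of the 8 tested whose groups did not overlap. KO lay wholly above WT for 8 of the 36 clustered genes tested as well, where 26.2% of all genes had that order. The log2 fold change of H2afy was 0.38 ± 0.24 (SE, limma, adjusted p = 0.298), and 0.50 ± 0.13 without WT 2, where it passed. H3f3b had 183, 386 and 151 in WT and 235, 241 and 291 in KO, and H3f3a had 57.5, 49.2 and 38.8 in WT and 50.1, 59.6 and 53.9 in KO. H3f3b was above WT 1 and WT 3 in every KO library and passed without WT 2 (0.61 ± 0.17), but not with all libraries (0.21 ± 0.45, limma, adjusted p = 0.770). H3f3a, which encodes the same protein, overlapped between groups, with a 95% interval of the log2 fold change of -0.44 to 0.79 with all libraries and of -0.28 to 0.68 without WT 2.

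The other variant genes did not pass with or without WT 2. H2afz, the most abundant variant gene after H3f3b and the source of H2A.Z, had 170, 225 and 164 in WT and 160, 230 and 233 in KO, which overlapped. H2afj had 40.6, 434 and 38.1 in WT and 37.4, 49.4 and 43.7 in KO, and H1f0, a linker histone of resting cells, had 8.83, 18.9 and 3.67 in WT and 5.49, 5.53 and 8.55 in KO. WT 2 was the highest library for both, and WT 1 and WT 3 bracketed or overlapped KO. The 95% interval of the log2 fold change without WT 2 was -0.21 to 0.79 for H2afz, -0.24 to 0.51 for H2afj and -0.75 to 1.00 for H1f0. On the TPM scale without WT 2, 7 of 8 variant genes passed as higher, beside 39.4% of all genes, with all genes shifted by 0.37 in the median.

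The members that were not tested were low in KO. Of the 31 clustered genes below the filter, 7 had no read in any library (Hist2h2aa1, Hist2h2aa2, Hist2h3c1, Hist2h3b, Hist2h2bb, Hist1h2ba and Hist1h2aa) and 24 had some. WT 2 was the highest library for 16 of the 31, and the highest FPKM of any of them was 2.86 in WT and 1.30 in KO. Over all 67 clustered genes, KO lay above both WT 1 and WT 3 in every library for 38. Of these, 30 were among the 36 that had passed the filter, where 37.7% of all genes tested had this order, and 8 were not. The 30 are partly set by the filter, since 25 of the 36 passed it with an FPKM below 1 in both WT 1 and WT 3. The share of 30 in 36 is above the 37.7%, but because of this filter it cannot be read as a result. Of the variant genes, 5 had no read in any library: H2afb1, H2afb2, H2afb3, H1foo and H1fnt, which are known from germ cells. H1fx had an FPKM of 6.15 in WT 2, 0.319 in WT 1 and at most 0.0441 elsewhere, and H2afy2 was at 0 in all KO libraries and at 0.268, 0.469 and 0.0890 in WT. With 3 reads as the limit, a gene with no read could have had up to between 0.165 and 0.230 RPM.

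Many H2A and H2B genes lie head to head and share 1 promoter region. There were 13 such pairs of members, 12 of them of an H2A and an H2B gene, with 175 to 659 bases between the gene models. Both genes were tested in 5 pairs. In the pair of Hist1h2ag and Hist1h2bj the log2 fold changes were 2.16 and 2.03, and in that of Hist1h2bl and Hist1h2ai 0.95 and 2.03. Hist1h2ak and Hist1h2bn stood at 0.31 and 0.23, Hist2h2ac and Hist2h2be on chromosome 3 at 0.21 and 0.74, and Hist1h2ae and Hist1h2bg at 1.30 and -0.09. Without WT 2 the last pair stood at 2.28 and -0.04 and was the most unequal of the 5.

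Promoters were taken from RefSeq (GRCm38.p6, 250 bases before to 50 after each start), in which 76 of 82 members were matched through older gene symbols. The motif CCAAT, the TATA box in the form TATAAA and the octamer ATTTGCAT were searched on both strands, anywhere in the window. CCAAT, the site of the factor NF-Y, was found in 53 of 62 clustered promoters (85.5%), in 10 of 14 variant promoters (71.4%) and in 37.4% of all 32851 promoters. It was in every matched clustered promoter of types H1, H2A, H2B and H3 and in 3 of 12 of type H4. TATAAA was found in 56.5% of clustered and 7.14% of variant promoters and in 13.6% of all, and the octamer in 7 of 18 H2A, 6 of 16 H2B and no H1, H3 or H4 promoter of a cluster, in 1 of 14 variant promoters and in 1.74% of all. The region between Hist1h2bl and Hist1h2ai is shown because both genes passed the test, and that of Hist1h4f because it is the H4 gene that passed; the motifs found are in capitals.
Hist1h2ai promoter, chr13:21716162-21716461, plus strand: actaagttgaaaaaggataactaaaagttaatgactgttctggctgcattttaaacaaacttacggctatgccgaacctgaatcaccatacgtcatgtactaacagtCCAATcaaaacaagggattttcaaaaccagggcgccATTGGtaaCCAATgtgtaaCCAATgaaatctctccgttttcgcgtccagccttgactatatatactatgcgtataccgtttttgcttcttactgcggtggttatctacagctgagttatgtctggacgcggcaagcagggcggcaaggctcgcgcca
Hist1h4f promoter, chr13:23551619-23551918, minus strand: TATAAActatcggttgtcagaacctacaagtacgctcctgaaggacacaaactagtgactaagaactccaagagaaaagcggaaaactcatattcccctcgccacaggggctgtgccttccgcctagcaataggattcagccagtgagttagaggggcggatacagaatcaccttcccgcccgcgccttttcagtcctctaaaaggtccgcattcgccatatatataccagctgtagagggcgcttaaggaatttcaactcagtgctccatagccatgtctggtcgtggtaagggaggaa
In the Hist1h2ai window all capitals are copies of CCAAT or of its complement, 4 in all, and the Hist1h4f window holds TATAAA at its far upstream end only. A match is a description of the letters and says nothing of binding.

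The clustered genes were also grouped by the end of the annotated transcript, a grouping made after the values were known. In 22 of 67 the longest matching transcript went on for fewer than 100 bases after the stem-loop, as in Hist1h2ag (23 bases) and Hist1h4f (33), in 22 for 100 bases or more, as in Hist1h1c (840) and Hist1h4i (330), and in 23 no stem-loop was found. A poly(A) signal, AATAAA or the less frequent ATTAAA, followed the stem-loop in 1 gene with a short end and 15 with long ends. Only the bases after a stem-loop were searched, so short ends left few bases to search. Genes with no stem-loop were not searched. Among genes tested, the median log2 fold change was 1.16 in the 14 with short ends, 0.08 in the 10 with long ends and 0.57 in the 12 with no stem-loop, and 1.73, 0.78 and 1.07 without WT 2. The ranges overlapped widely, from -0.46 to 2.16, from -1.44 to 1.52 and from -0.68 to 2.03. With all libraries 2, 0 and 2 of these genes were higher, and without WT 2 there were 12 of 14, 6 of 10 and 10 of 12, beside 13.1% and 26.8% of all genes. Since most clustered genes tested passed the filter through KO and WT 2, these counts are no support for a direction. The 3 lowest fold changes without WT 2, those of Hist1h1c, Hist3h2a and Hist1h2bg (named after their values were seen), all belonged to genes with long ends.

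**Figure D5:**
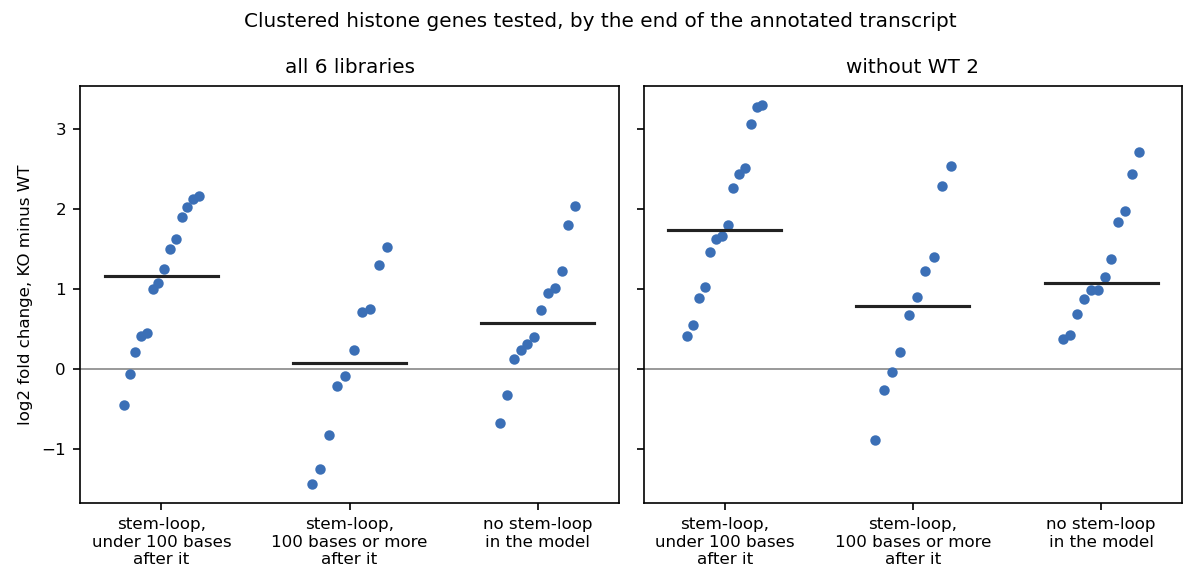
Each point is 1 clustered histone gene that was tested (14, 10 and 12 in the 3 groups), placed by its log2 fold change (KO minus WT) with all 6 libraries (left) and without WT 2 (right), and grouped by how far the annotated transcript goes on after the stem-loop. Black lines are medians (1.16, 0.08 and 0.57 on the left, 1.73, 0.78 and 1.07 on the right), and the 3 groups overlap.

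The factors that make histone mRNA were examined next. Of 15 tested genes of a list of 16 for histone mRNA maturation, 1 was higher and 0 lower, beside 13.1% and 13.3% of all genes. This was Cstf2, a subunit of a 3′ end processing factor, at 7.47, 2.36 and 9.12 in WT and 21.2, 21.9 and 20.4 in KO (log2 fold change 1.74 ± 0.44 SE, limma, adjusted p = 0.0281). All KO libraries were above all WT libraries, and Cstf2 passed in 12 of 18 alternatives. The cap-binding subunits Ncbp1 and Ncbp2 and the exonuclease Eri1, which trims the histone stem-loop, stood at 0.70 ± 0.22, 0.89 ± 0.34 and 0.83 ± 0.28 (SE, limma, adjusted p = 0.0570, 0.102 and 0.0768). Without WT 2, 7 of the 15 were higher, these 4 among them, beside 26.8% of all genes. Without any 1 of the other libraries 0 or 1 was higher, beside 7.004% to 11.1% of all genes. Slbp, the stem-loop binding protein (chosen here after its values were seen), had 13.9, 4.89 and 13.2 in WT and 11.6, 16.5 and 19.6 in KO, and did not pass (log2 fold change 0.62 ± 0.43 SE, limma, adjusted p = 0.341). The 16 genes of the list summed to an FPKM of 217, 283 and 209 in WT 1 to WT 3 and of 288, 290 and 301 in KO 1 to KO 3.

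Histone chaperones carry histones to DNA. Of 22 chaperone genes tested 4 were higher and 0 lower, beside 13.1% and 13.3% of all genes. Without WT 2, 12 were higher, beside 26.8%, and without any 1 of the other libraries 3 were, beside 7.004% to 11.1%. Anp32e, a chaperone that removes H2A.Z, was at 38.1, 34.6 and 30.5 in WT and 97.1, 133 and 151 in KO (log2 fold change 1.84 ± 0.28 SE, limma, adjusted p = 0.00457). Mms22l, a repair factor at broken forks, was at 3.65, 1.59 and 3.62 in WT and 12.6, 10.6 and 13.5 in KO, and Chaf1a, the large subunit of the chromatin assembly factor CAF-1, at 2.13, 1.01 and 1.11 in WT and 5.06, 5.60 and 7.56 in KO. Rbbp4, which binds H4 in several complexes, passed as well with 0.98 ± 0.27 (SE, limma, adjusted p = 0.0402). All 4 were higher in every KO library than in any WT library, an order that 26.2% of all genes had. They were named for their small p, so this order adds little.

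Of 24 S phase genes tested 8 were higher and 0 lower, with a median log2 fold change of 1.16, beside 13.1% and 13.3% of all genes. Without WT 2, 20 were higher, beside 26.8%. The count was 2 without WT 1, beside 9.24% of all genes. It was 1 without WT 3, KO 1, KO 2 or KO 3 in turn, beside 11.1%, 7.38%, 7.004% and 7.18%. Uhrf1, which keeps DNA methylation through replication, was at 14.4, 15.3 and 6.10 in WT and 86.5, 98.96 and 138 in KO (log2 fold change 3.14 ± 0.40 SE, limma, adjusted p = 0.00243). The helicase subunit Mcm2 and the ribonucleotide reductase subunit Rrm1 stood at 1.25 ± 0.32 and 1.43 ± 0.37 (SE, limma, adjusted p = 0.0291 and 0.0319). For these 3 genes, named for their small p, no WT library, WT 2 included, reached a KO library, an order that 26.2% of all genes had. The S phase sum of WT 2 was thus below KO (533 against at least 627 FPKM). Its clustered histone sum was above KO in FPKM (501 against at most 233) but below KO in TPM (558 against at least 663).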

How the data were processed

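The data were 6 RNA-seq libraries of mouse BM cells (Trizol RNA, NEBNext Ultra kit, paired-end reads on a NovaSeq), 3 WT and 3 KO by their genotype labels. The submitters' processing notes name HISAT2 (2.0.5) and featureCounts (1.5.0-p3). The unit was FPKM, deposited by the authors as a matrix of genes by libraries with gene lengths and GRCm38 coordinates. The use of strand, of reads with several matches and of poly(A) selection was not given in the sources used here. Multiplied by gene length, 100% of the FPKM values came out as whole reads (tolerance 0.01 reads) after division by the smallest step of their library. The library size used by the authors was 0.645 times the recovered total in WT 2 and 1.01 to 1.21 times in the other libraries. A further scaling is thus part of the FPKM, and it raises the FPKM of WT 2 relative to its reads. The study tested counts with a model for counts, and because the unit is FPKM, limma (3.58.1) in R (4.3.3) was used here: lmFit and eBayes with a trend on log2(FPKM + 1), two-sided, with Benjamini-Hochberg adjustment over the 13393 genes with FPKM 1 or more in 3 or more libraries and a threshold of 0.05. The script was tested on simulated data. Tables were handled with pandas 2.3.3 and NumPy 2.4.6 in Python 3.11.15, and plots were drawn with Matplotlib 3.10.9.

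The members, gene lists and alternatives were chosen with earlier results of these data known. Every variant gene tested was named, with the 3 most abundant clustered genes of each type, the 5 clustered genes with the smallest p and up to 4 genes of each of the histone mRNA maturation, chaperone and S phase lists. One S phase gene named by this rule is not reported here. Cell type markers were 8 genes each for T cells, neutrophils, erythroid cells, B cells, and monocytes and macrophages. The alternatives were pseudocounts of 0.1 and 0.5, no filter, TPM, quantile normalization, median-of-ratios scaling, a filter at a mean FPKM of 5, removal of the trend with gene length, eBayes without the trend, array weights, a replicate block, voom on recovered reads, and leaving out each library. TPM, no filter, removal of the length trend and voom were combined with leaving out WT 2 after the data had been seen. Precision is limited by 886 to 5521 reads per library for the whole clustered class.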

Additional observations from a re-analysis of the deposited data

How the results depend on the processing

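Of 692 tests of the 39 named genes under 18 alternatives, 560 kept the direction and the side of the threshold, and 30 genes never reversed. Beside 4 clustered genes higher and 0 lower with all libraries, the count of higher genes was 2 with no filter, 0 with a mean FPKM of at least 5, 2 with quantile normalization, 17 on the TPM scale and 30 with array weights (1 lower), and 2 to 28 (0 to 1 lower) when 1 library was left out, the highest without WT 2. Variant genes, with 0 higher and 0 lower, gave 3 with quantile normalization, 1 on the TPM scale, 4 with array weights and 0 to 4 with 1 library left out. For all genes, 1754 higher and 1785 lower became 786 and 1051 with a mean FPKM of at least 5, 4388 and 4073 with array weights, 2279 and 1081 on the TPM scale, and 938 to 3584 higher and 996 to 3383 lower with 1 library left out.

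In the settings added after the data had been seen, each without WT 2, higher counts were 3508 (4283 lower) for all genes, 25 for clustered and 2 for variant genes with no filter, 5283, 30 and 7 on the TPM scale, 3398 (3568 lower), 26 (1 lower) and 4 with the length trend removed, and 3516 (3388 lower), 25 and 4 with voom. The median log2 fold change of clustered genes (0.72) was 0.23 with no filter, 1.80 on the TPM scale, 1.16 with array weights and 0.42 to 1.30 with 1 library left out, and 2.20, 1.13 and 2.60 without WT 2 on the TPM scale, with the length trend removed and with voom. That of variant genes (0.16) was 0.82 with quantile normalization, 1.00 on the TPM scale, 0.41 with array weights and -0.01 to 0.39 with 1 library left out, and 0.74 and 0.40 without WT 2 on the TPM scale and with voom.

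The maturation list, with 1 gene higher, gave 2 with a pseudocount of 0.1, 0 with no filter, 4 with quantile normalization, 3 with the length trend removed, 9 with array weights (1 lower) and 0 to 7 with 1 library left out. The chaperone list, with 4, gave 9 on the TPM scale, 13 with array weights (1 lower) and 3 to 12 with 1 library left out. The S phase list, with 8, gave 3 with no filter, 14 with quantile normalization, 18 on the TPM scale, 21 with array weights and 1 to 20 with 1 library left out.

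Reversed log2 fold changes were those of H1f0 (0.41), Hist1h1b (0.55) and Hist1h2bc (0.14) on the TPM scale and of H2afj (0.12), Hist1h1b (0.78) and Hist3h2ba (0.46) with array weights. With 1 library left out, H1f0 ranged from -0.92 to 0.13, H2afj from -1.60 to 0.13, H2afx from -0.48 to 1.01 (-0.15 without WT 1, -0.02 without KO 3), H3f3b from -0.060 to 0.61, Hist1h1b from -0.87 to 0.68, Hist1h1a from -0.50 to 1.14 (-0.28 without WT 1, -0.02 without KO 2), Hist1h2bc from -1.50 to 0.37, Hist3h2ba from -2.25 to 0.20 and Hist1h4h from -0.33 to 1.80 (-0.24 without WT 3). Without WT 2 and with no filter, on the TPM scale, with the length trend removed and with voom in turn, H1f0 was 0.13, 0.48, 0.034 and 0.16, H2afj 0.13, 0.48, 0.030 and 0.14, Hist1h1b 0.68, 1.34, 0.53 and 1.36, Hist1h2bc 0.37, 0.78, 0.19 and 0.49, and Hist3h2ba 0.20, 0.59, 0.10 and 0.40. The cause of these changes was not tested.

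The same replicate numbers occur in both groups. The correlation of the deviations of same-numbered libraries was 0.10, 0.10 and -0.15, and that of differently numbered libraries ranged from -0.20 to 0.23. A pairing was thus not visible, but values from so few libraries cannot exclude it. With the replicate block 3 clustered, 0 variant and 2 S phase genes were higher, and 1207 of all genes were higher and 1469 lower.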
